A study of Homo sapiens with 8 samples.

Results

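The nuclear genes of oxidative phosphorylation were compared in the breast cancer line BT474 between samples labelled high and low for NPY1R. Members were taken by name from the deposited table of 26475 genes: symbols of the NDUFA, NDUFB, NDUFC, NDUFS and NDUFV series, SDHA to SDHD, and symbols starting with UQCR, COX4 to COX8 or ATP5. Of 93 matching rows, 2 were named as pseudogenes (ATP5EP2 and UQCRBP1) and left out, so that 91 members remained. They comprise 83 subunits or subunit isoforms and 8 rows for antisense, readthrough or non-subunit genes that share the names. BT474 is an ERBB2-amplified human tumour line of luminal type. The 8 libraries, 4 labelled NPY1R high and 4 labelled NPY1R low, are all from untreated BT474 as far as the labels go: no drug, other cell line or genetic change is named for either group. How the high and low cells were obtained is not stated, and the labels do not say whether the replicates are separate cultures, so p-values measure only the spread between these libraries, which may be technical.

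The respiratory chain passes electrons from NADH (complex I) and succinate (complex II) through ubiquinone to complex III, then through cytochrome c to complex IV, which reduces oxygen. Complexes I, III and IV pump protons across the inner mitochondrial membrane, and complex V, the ATP synthase, uses the gradient to make ATP. A few subunits are encoded in mitochondrial DNA and are not analysed here. All others come from the nucleus, where the factors NRF1, GABPA, YY1 and the estrogen-related receptors, with the coactivator PPARGC1A, are known to promote their transcription.

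NPY1R, the receptor gene after which the groups are named, stood at 699 to 1049 CPM (counts scaled to library size, per 1e6) in the high libraries and at 90.8 to 104 CPM in the low libraries, a log2 fold change of 3.16 (SE 0.13). Library totals ranged from 18025648 to 30609791 expected counts. All 10 luminal epithelial markers checked (KRT8, KRT18, KRT19, EPCAM, CDH1, ERBB2, GRB7, GATA3, FOXA1 and ESR1) were expressed, but not all were level between the groups. In NPY1R high, 2 of the 10 passed the test as higher, ESR1 (log2 fold change 0.59, SE 0.05) and GATA3 (0.6, SE 0.11). Another 3 passed as lower, GRB7 (-0.51, SE 0.08), EPCAM (-0.3, SE 0.05) and FOXA1 (-0.23, SE 0.05). The remaining luminal markers did not pass. In either direction 5 of the 10 were called (50%), against 13.6% of all tested genes. Of 12 markers of blood, stromal, endothelial and muscle cells, 8 had 10 or fewer counts over all 8 libraries and 5 were at 0 (CD3E, COL1A2, DCN, PDGFRB and HBB). COL1A1, VWF and CD68 were expressed in both groups, and none of these 3 passed the test. In these bulk libraries, fewer cells of a type and less RNA per cell cannot be told apart. Fold changes below are NPY1R high over NPY1R low on the log2 scale, from edgeR's quasi-likelihood test. Adjusted p-values are Benjamini-Hochberg over all 14008 genes that passed the filter on low counts, with a threshold of 0.05.

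Transcripts of the respiratory complexes were nearly level between the groups. Of 79 tested members, 3 passed the test (3.8%), against 13.6% of all tested genes. All 3 were lower in NPY1R high and all 3 belong to complex I: NDUFS1, NDUFC2 and NDUFA6. Scaling ended calls: NDUFC2 alone passed with each of the 7 other TMM references, with DESeq2 or upper-quartile factors and with a replicate block, and no member passed with library totals. Leaving out 1 library gave 0 to 3 members. None was higher as reported, while over all genes 5.78% were higher and 7.81% lower. That split over all genes moved with the scaling, from 42.5% of calls higher as reported to 56.3% with upper-quartile factors. An unadjusted p under 0.05 was found for 9 of the 79 (11.4%), against 26.2% of all genes. The groups did not overlap in CPM for 8 members (10.1%), against 20.2% of all tested genes. The median fold change of the members was -0.04 and that of all genes -0.03. The members' fold changes ran from -0.46 for NDUFS7 to 0.15 for NDUFA4. Their median size without sign was 0.07, against 0.14 over all genes. The 95% confidence interval lay within 1.5-fold in either direction for 71 of the 79 members (89.9%), against 64.8% of all tested genes. That share was not particular to the members: it was 93.7% among cytosolic and 91.9% among mitochondrial ribosomal protein genes.

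**Figure D1:**
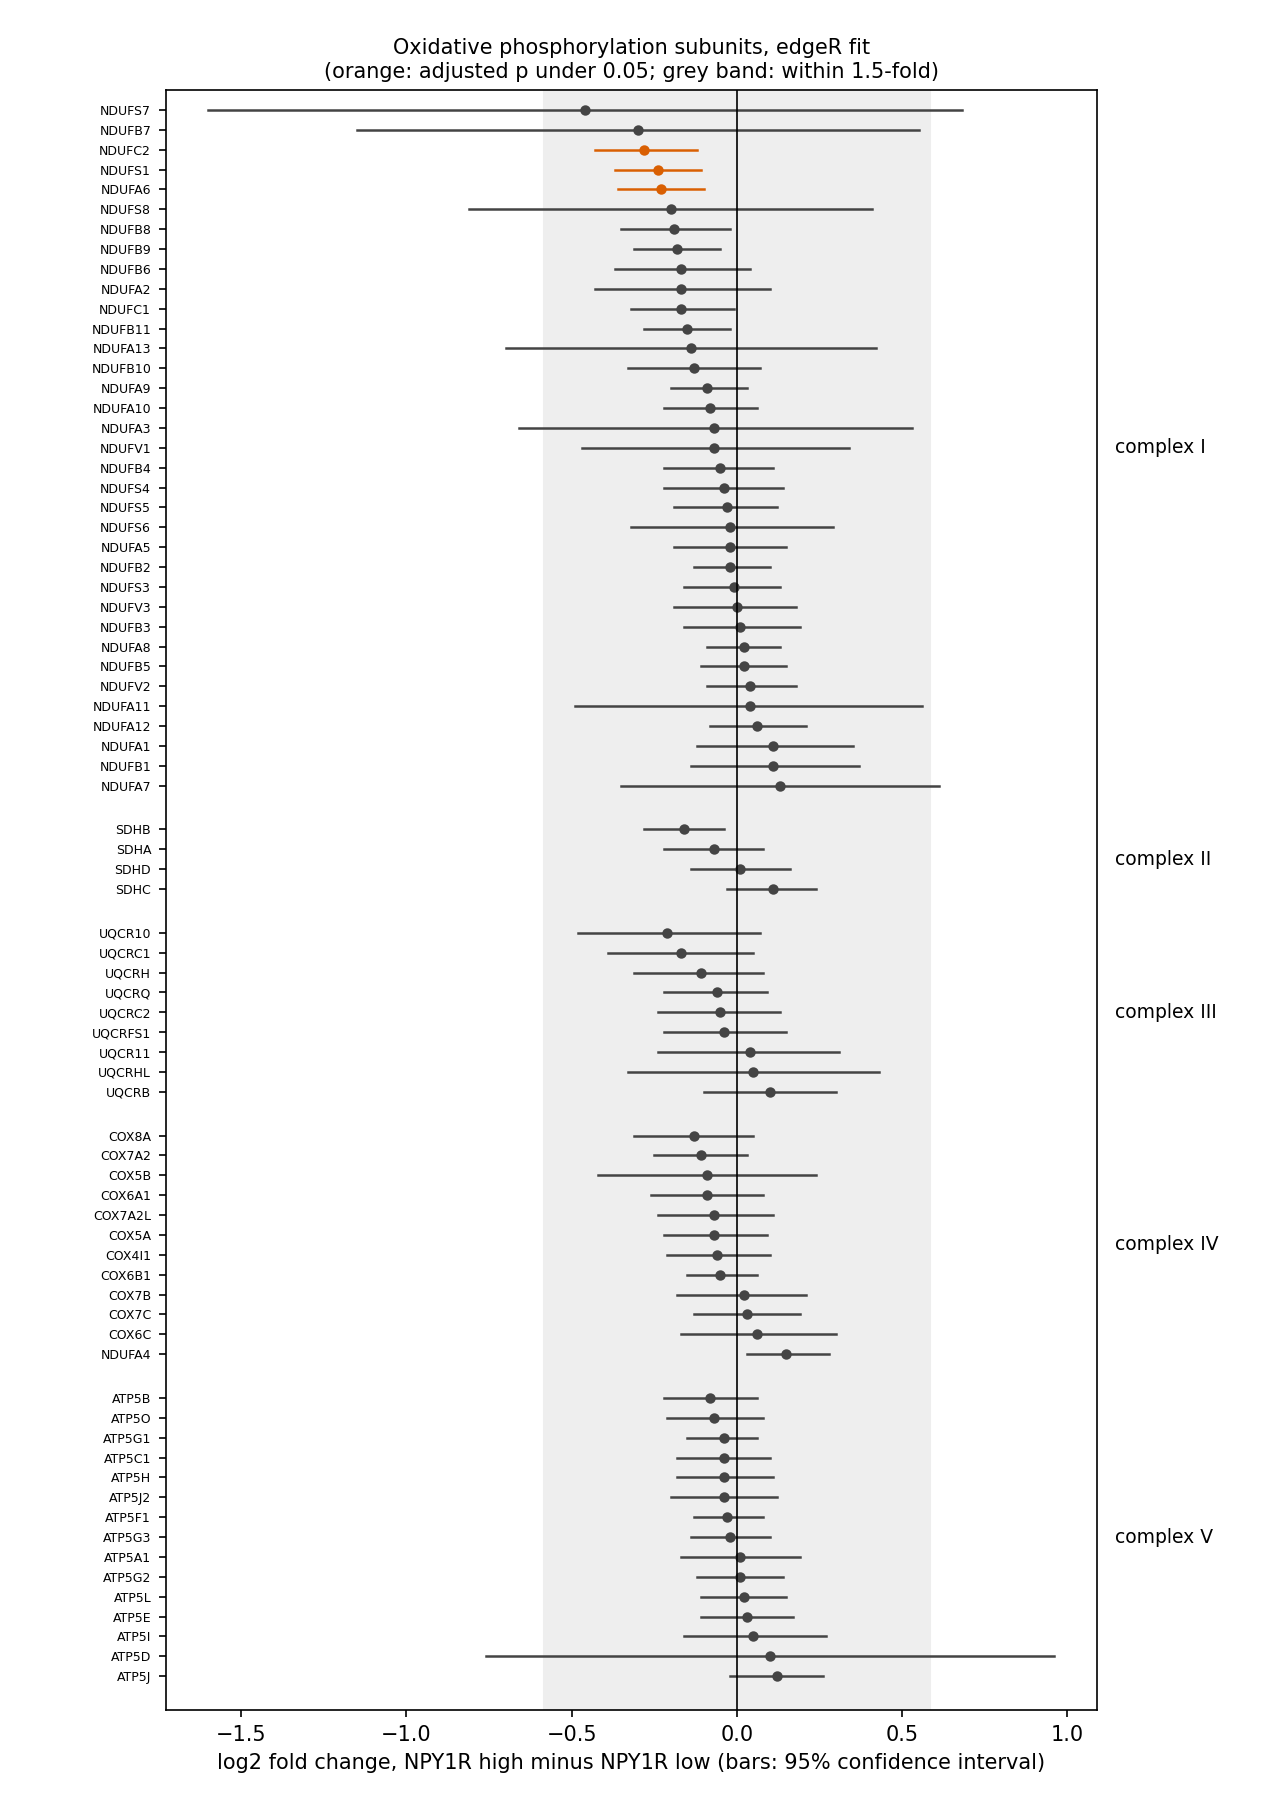
Log2 fold change (NPY1R high minus NPY1R low, x axis) of 75 of the 76 tested subunits, 1 row each, grouped by complex, with 95% confidence intervals as bars, orange where the adjusted p was under 0.05, and a grey band for changes within 1.5-fold. Most points lie close to 0, the 3 orange subunits are in complex I, and the widest intervals belong to NDUFS7, ATP5D and NDUFB7.

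Complex I, the NADH dehydrogenase, had 36 members, all tested. NDUFS1, NDUFC2 and NDUFA6 were lower in NPY1R high (3 of 36, 8.33%, against 7.81% of all tested genes), and none was higher. The groups did not overlap for 6 (16.7%, against 20.2% of all tested genes), so that both shares were near or below those over all genes. The median was -0.07. It ran from -0.07 to -0.01 over the scalings tried, under which 19 to 27 of the 36 fold changes were negative. Of the 7 core subunits with the redox centres, 1 passed the test. Of the 29 accessory subunits, which surround the core and are needed to assemble and stabilise it, 2 did.

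NDUFS1, the largest core subunit, carries iron-sulfur clusters in the NADH-oxidising arm. Its gene lies on the minus strand at chr2:206114817-206159603 (GRCh38). NDUFS1 had 196, 194, 188 and 190 CPM in NPY1R high replicates 1 to 4 and 216, 210, 235 and 245 CPM in NPY1R low replicates 1 to 4. The high libraries lay close together and all below the low ones, among which replicates 3 and 4 were highest. The fold change was -0.24 (SE 0.06, adjusted p = 0.0223). Of the 3 calls that of NDUFS1 was kept under the fewest alternatives, 10 of 36. It was lost on leaving out any 1 library other than NPY1R low replicate 2, with adjusted p from 0.0507 to 0.13. It was also lost under every other scaling tried in edgeR, with a replicate block and with the length offset, with adjusted p from 0.0502 to 0.105.

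NDUFC2, an accessory subunit of the membrane arm, lies on the minus strand at chr11:78068304-78080219. NDUFC2 had 69.5, 71.0, 68.0 and 65.7 CPM in the high libraries and 87.2, 91.3, 78.6 and 75.1 CPM in the low libraries. The groups did not overlap, and low replicates 1 and 2 stood furthest above the high libraries. The fold change was -0.28 (SE 0.07, adjusted p = 0.0257). Of the 3 calls it was the one kept under most alternatives, 26 of 36. It was lost without any 1 of the 4 high libraries, without low replicate 1 and without low replicate 2, with adjusted p from 0.051 to 0.128. A few of its reads were shared with the readthrough gene NDUFC2-KCTD14, which had 16 counts over all libraries.

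NDUFA6, an accessory subunit where the arms of the complex meet, lies on the minus strand at chr22:42085525-42090955. NDUFA6 had 74.4, 72.6, 81.5 and 70.5 CPM in the high libraries and 91.2, 89.1, 84.0 and 86.7 CPM in the low libraries. High replicate 3 came closest to the low group without reaching it. The fold change was -0.23 (SE 0.06, adjusted p = 0.0273). The call was kept under 12 of 36 alternatives and was lost without high replicate 1, 2 or 4 or low replicate 1, 2 or 4, with adjusted p from 0.0692 to 0.16. It was also lost under every other scaling tried in edgeR, with a replicate block and with the length offset, with adjusted p from 0.0526 to 0.137. The antisense neighbour NDUFA6-AS1, which starts on the other strand at the 5′ end of NDUFA6, had 1.85 to 2.99 CPM in the high and 1.65 to 3.69 CPM in the low libraries. The fold change of NDUFA6-AS1 was -0.14 (SE 0.26, adjusted p = 0.81), with groups that overlapped.

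Promoter sequence is shown for NDUFS1, NDUFA6 and SDHB, the complex II subunit nearest the threshold, because these members had the lowest adjusted p among those with a promoter in the RefSeq table (GRCh38.p14). The 250 bases before each RefSeq start were searched for the letters GCATGCGC (NRF1), CCGGAAGT (ETS factors such as GABPA) and AAGGTCA (estrogen-related receptors) on either strand. The annotations place the starts differently: those of GENCODE release 29, which give the gene positions printed here, lie 159, 183 and 138 bases upstream of the RefSeq starts of NDUFS1, NDUFA6 and SDHB. For NDUFS1 and NDUFA6 the match lay inside the GENCODE gene, and 30 bases around it are shown (chr2:206159584-206159613 and chr22:42090920-42090949). For SDHB the 112 searched bases before the GENCODE start are shown (chr1:17054171-17054282). Each line reads 5′ to 3′ along the gene, on the minus strand, with matches in capitals.
NDUFS1: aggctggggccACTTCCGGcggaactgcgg
NDUFA6: tctgtagatgaGCATGCGCagcacccaccg
SDHB: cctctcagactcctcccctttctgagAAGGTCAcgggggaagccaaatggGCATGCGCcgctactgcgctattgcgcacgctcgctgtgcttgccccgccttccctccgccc
The NDUFS1 stretch held the ETS letters, read on the opposite strand as ACTTCCGG. The table holds a second NDUFS1 start, and the 250 bases before it (chr2:206159210-206159459) held none of these letters. The NDUFA6 stretch held the NRF1 letters, and the SDHB stretch held those of NRF1 and of the estrogen-related receptors. A match is a description of the sequence and shows no binding.

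Other complex I subunits had lower means in NPY1R high without passing the test. NDUFB9, a small accessory subunit of the membrane arm, had 129, 122, 133 and 120 CPM in the high and 147, 145, 130 and 147 CPM in the low libraries. Low replicate 3 fell within the range of the high group, and the fold change was -0.18 (SE 0.06, adjusted p = 0.08). NDUFB11, NDUFB6 and NDUFC1, also membrane-arm accessory subunits, had groups that did not overlap, with fold changes of -0.15, -0.17 and -0.17 and adjusted p of 0.123, 0.295 and 0.159. The core subunits NDUFS3 (fold change -0.01, SE 0.06) and NDUFV2 (fold change 0.04, SE 0.06) had narrow intervals around 0. NDUFV1, which binds NADH and FMN, had a fold change of -0.07 with a wider error (SE 0.18).

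**Figure D2:**
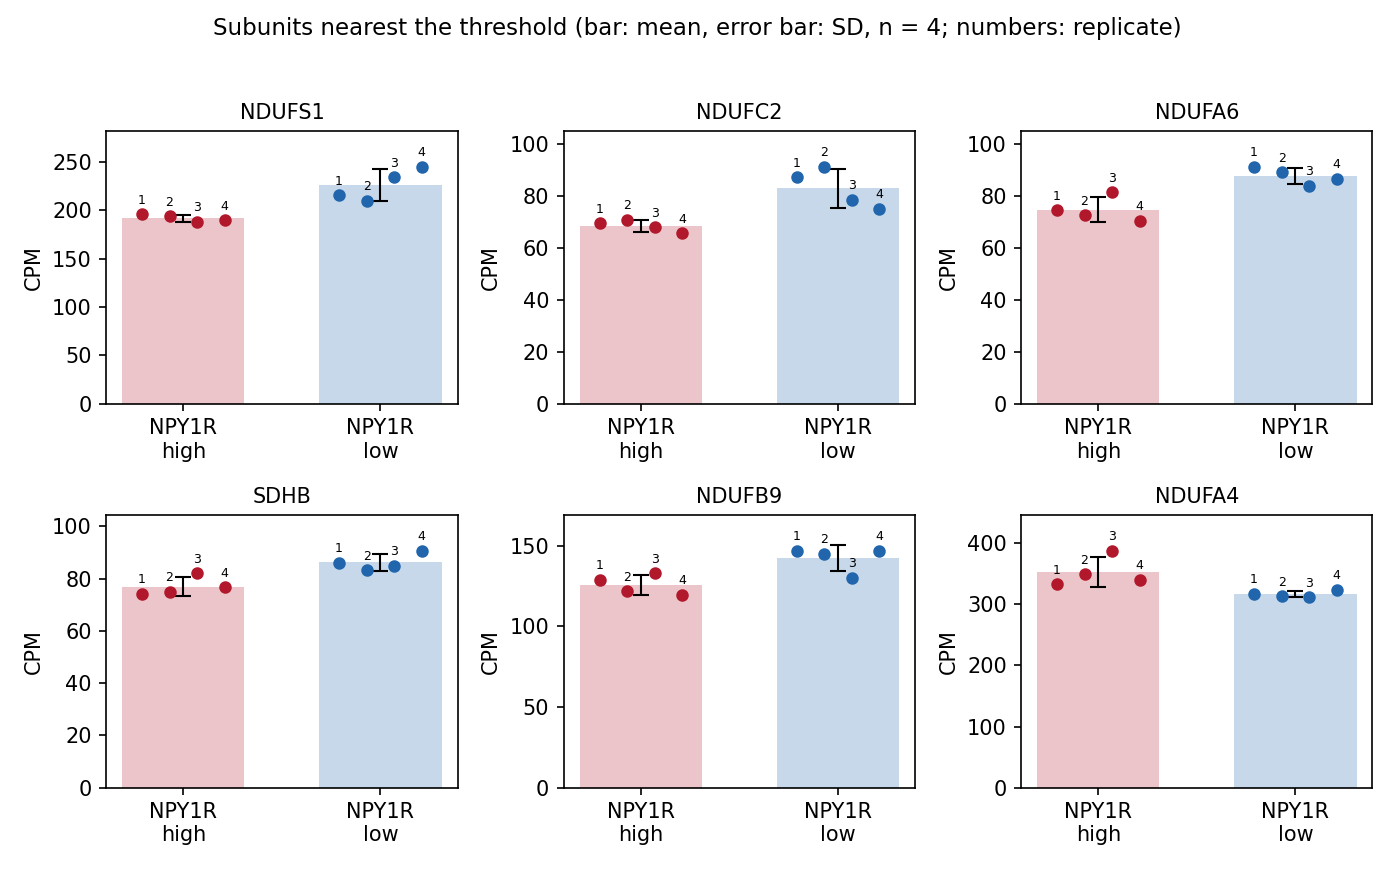
CPM (y axis, from 0) of the 3 members past the threshold (NDUFS1, NDUFC2, NDUFA6) and the 3 just short of it (SDHB, NDUFB9, NDUFA4) in NPY1R high and NPY1R low; bars are means, error bars SD (n = 4), and each numbered point is a replicate. The groups do not overlap except in NDUFB9, and NDUFA4 is the only 1 of the 6 with the higher mean in NPY1R high.

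Complex II, succinate dehydrogenase, is also an enzyme of the tricarboxylic acid cycle and is encoded wholly in the nucleus. None of its 4 subunits passed the test, and the median was -0.03. SDHB, the iron-sulfur subunit (minus strand, chr1:17018722-17054170), had 74.2, 75.0, 82.0 and 76.7 CPM in the high libraries and 86.1, 83.3, 84.9 and 90.7 CPM in the low libraries. The groups of SDHB did not overlap; high replicate 3 and low replicate 2 came closest, and the fold change was -0.16 (SE 0.05, adjusted p = 0.0784). SDHC, a membrane anchor, had 154 to 168 CPM in the high and 140 to 164 CPM in the low libraries, with a fold change of 0.11 (SE 0.06, adjusted p = 0.326). The flavoprotein SDHA (-0.07, SE 0.07) and the anchor SDHD (0.01, SE 0.07) were within their error of 0. SDHA counts held reads that the authors' estimate shared with other genes.

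Complex III, the cytochrome bc1 complex, had 9 tested members, none past the test, with no pair of groups apart and a median of -0.05. UQCRFS1, the Rieske iron-sulfur protein, had 108 to 126 CPM in the high and 107 to 134 CPM in the low libraries, a fold change of -0.04 (SE 0.08). The widest differences were those of UQCR10 (-0.21, SE 0.12, adjusted p = 0.344) and UQCRC1 (-0.17, SE 0.10, adjusted p = 0.328), a small subunit and a core protein. UQCRH, the hinge protein, and its intronless copy UQCRHL had fractional counts, so their reads were partly shared. Per length, UQCRHL took 1.32% ± 0.144 (SD, n = 4) of their sum in NPY1R high and 1.18% ± 0.0856 (SD, n = 4) in NPY1R low.

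Complex IV, cytochrome c oxidase, had 19 members including tissue isoforms, of which 12 were tested. None passed the test, 1 had groups that did not overlap, and the median was -0.06. That 1 was NDUFA4, named for complex I and now placed in complex IV. NDUFA4 had 333, 349, 388 and 340 CPM in the high and 318, 314, 312 and 324 CPM in the low libraries. Every high library lay above every low one, and the fold change was 0.15 (SE 0.06, adjusted p = 0.107), the highest of all members. COX8A had 214, 202, 190 and 192 CPM in the high libraries and 232, 233, 226 and 184 CPM in the low libraries. Low replicate 4 lay below all high libraries, so the groups of COX8A overlapped, and the fold change was -0.13 (SE 0.08, adjusted p = 0.355). COX6B1, which faces the intermembrane space, had one of the narrowest errors of the complex, at -0.05 (SE 0.05).

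Tissue isoforms of complex IV were absent or nearly so in both groups. COX4I2, COX6A2 and COX7B2 had 0 counts in all 8 libraries, for which a limit of 3 counts per library applies, set by counting error alone. COX6B2 and COX7A1 had 1 count each in all, COX8C had 2, and NDUFA4L2, a paralogue of NDUFA4 induced in hypoxia, had 9 with at most 3 in a library. The isoforms COX4I1, COX6A1, COX6B1, COX7B, COX8A and NDUFA4 therefore made up nearly the whole of their pairs. COX7A2 took 76.5% ± 0.345 (SD, n = 4) of the COX7A family per length in NPY1R high and 77.1% ± 0.695 (SD, n = 4) in NPY1R low. The rest was COX7A2L, known as a supercomplex assembly factor, at 23.5% and 22.9%.

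Complex V, the ATP synthase, had 15 tested members. None passed the test, none had groups apart, and the median was -0.02. It was 0.01 over the 5 subunits of the catalytic F1 head, -0.03 over the 4 of the peripheral stalk and -0.01 over the 6 of the membrane part. ATP5B (current symbol ATP5F1B), the catalytic beta subunit, had 1003, 992, 1112 and 1031 CPM in the high and 1080, 1024, 1072 and 1192 CPM in the low libraries. Both ranges covered much the same values, with a fold change of -0.08 (SE 0.06, adjusted p = 0.512). ATP5A1 (ATP5F1A), the alpha subunit, had a fold change of 0.01 (SE 0.08). ATP5J (ATP5PF), the coupling factor of the stalk, had the largest positive value of the complex at 0.12 (SE 0.06, adjusted p = 0.274).

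The c subunit of the proton-turned ring is made from 3 genes that encode the same mature protein. Per length, ATP5G1 (ATP5MC1) gave 69.7% ± 1.36 (SD, n = 4) of their sum in NPY1R high and 70.2% ± 1.2 (SD, n = 4) in NPY1R low. ATP5G2 (ATP5MC2) gave 17.7% and 17.3%, and ATP5G3 (ATP5MC3) 12.6% and 12.5%. The shares differed between groups by less than the SD between libraries. They rest on the transcript lengths used: without dividing by length, ATP5G1 gave 37.1% in NPY1R high and 37.7% in NPY1R low.

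Summed over the tested subunits, each complex had nearly the same TMM-scaled CPM in both groups. Complex I summed to 2583, 2486, 2616 and 2481 CPM in the high libraries and 2759, 2789, 2595 and 2599 CPM in the low libraries. The group means of 2541 ± 68.2 and 2685 ± 103 CPM (SD, n = 4) differed by -5.36%, and high replicate 3 lay above low replicates 3 and 4. The sums of complexes II, III, IV and V differed by -1.95%, -2.84%, -0.779% and -1.82%, with overlapping ranges in each. These differences and their signs rest on the TMM factors, and sums under other scalings were not made. The median fold change of the members was -0.04 as reported, 0.0 with library totals and 0.01 with upper-quartile factors. That of complex I was -0.07, -0.02 and -0.01. All 76 subunits together had mean sums of 9642 ± 412 CPM in the high and 9909 ± 178 CPM in the low libraries (SD, n = 4).

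**Figure D3:**
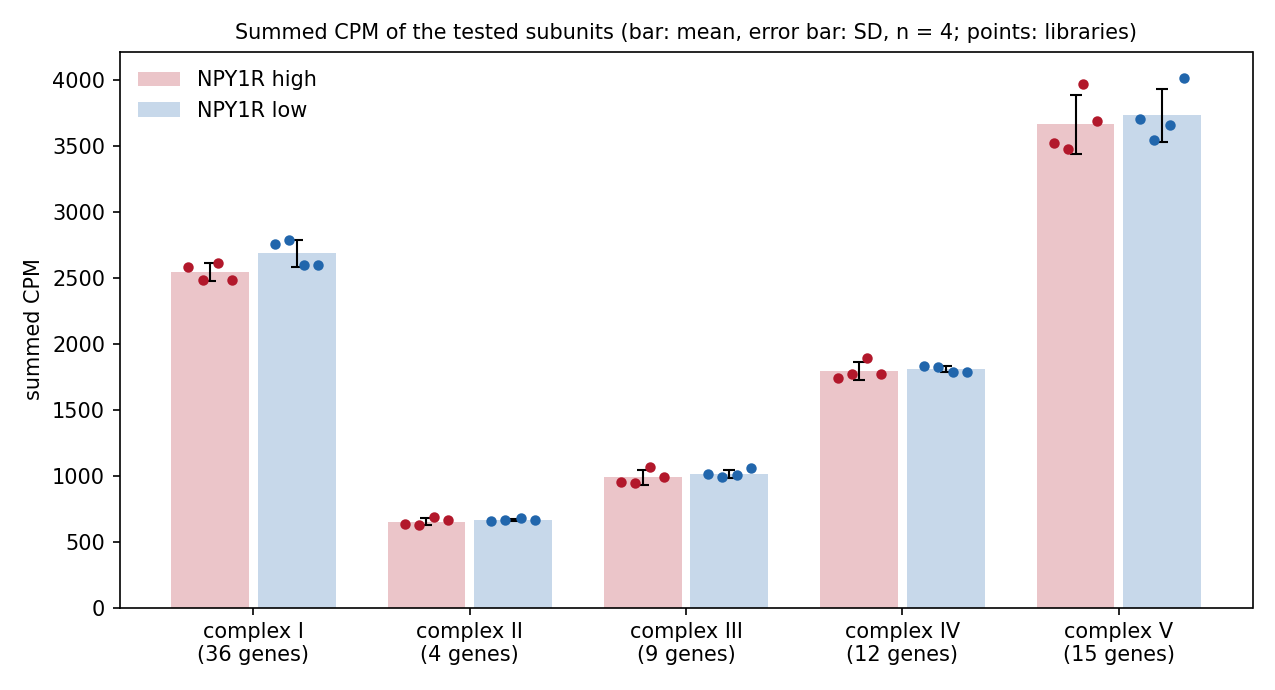
Summed CPM (y axis, from 0) of the tested subunits of each complex; bars are means, error bars SD (n = 4), and points are libraries, red for NPY1R high and blue for NPY1R low. The ranges of the groups overlap in every complex, and complex V has the highest sum.

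Levels of different genes were compared as CPM per kilobase of transcript, as means over the 8 libraries, which depends on the transcript length assumed for each gene. The highest were ATP5B at 578 and ATP5A1 at 481 CPM per kilobase, the beta and alpha subunits that occur in several copies per F1 head. Among the tested members of complex IV, COX8A (412) and COX4I1 (284) led and COX7A2L (54.2) was lowest. In complex II SDHC (299) and SDHA (143) stood above SDHB (70.8), and in complex III UQCRH (246) and UQCRQ (144) above UQCRHL (3.12). In complex I NDUFV2 (201) and NDUFB9 (199) were highest. NDUFS7, a core subunit that hands electrons to ubiquinone, was lowest in complex I at 2.47 CPM per kilobase, and ATP5D (ATP5F1D), the delta subunit of F1, was lowest in complex V at 4.37. The transcripts of NDUFS7 and ATP5D had GC contents of 67.6% and 69.5%. The 7 tested subunits with a GC content of 60% or more had a median of 29.3 CPM per kilobase, against 80.5 for the 20 subunits under 45%. Across all 76 subunits Spearman's rho between level and GC content was -0.11, a description across genes of the same libraries.

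GC content also marked where the members varied between replicates. NDUFS7 had 3.81, 2.79, 1.70 and 3.36 CPM in the high libraries and 5.84, 6.23, 3.02 and 0.746 CPM in the low libraries. Within the low group alone, replicate 2 of NDUFS7 was several times replicate 4, and the fold change of -0.46 had an SE of 0.51 (adjusted p = 0.651). NDUFB7, an accessory subunit with a GC content of 65.0%, had 19.0, 13.6, 10.3 and 13 CPM in the high and 23.6, 25, 14.2 and 5.77 CPM in the low libraries. ATP5D had 6.05, 3.31, 2.79 and 3.25 CPM in the high and 4.16, 5.64, 3.16 and 1.37 CPM in the low libraries. In all 3 genes low replicate 4 was the lowest of the 8 libraries.

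That order held for the 8 members with a GC content of 60% or more: NPY1R low replicate 4 was the lowest of all 8 libraries in 8 of 8, and high replicate 3 the lowest of the high group in 8 of 8. Their median deviation from the group mean was -0.88 (log2) in low replicate 4, 0.43 and 0.50 in low replicates 1 and 2, 0.38 in high replicate 1 and -0.34 in high replicate 3. Among the 20 members under 45%, low replicate 4 was the highest of its group in 17 and high replicate 3 the highest of its group in 19. Their median SD within groups was 0.09 (log2), against 0.49 for the members at 60% or more. Over the 79 members Spearman's rho between GC content and deviation was 0.69, 0.16, -0.69 and -0.06 in the high libraries and 0.71, 0.53, 0.0 and -0.67 in the low libraries. The trend was not special to these genes: all tested genes at 60% or more had a median deviation of -0.54 in low replicate 4. The 8 members whose interval went beyond 1.5-fold (ATP5D, NDUFA13, NDUFA3, NDUFA6-AS1, NDUFA7, NDUFB7, NDUFS7 and NDUFS8) all had a GC content of at least 55.4%; for them a change of 1.5-fold in at least 1 direction lay within the interval.

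**Figure D4:**
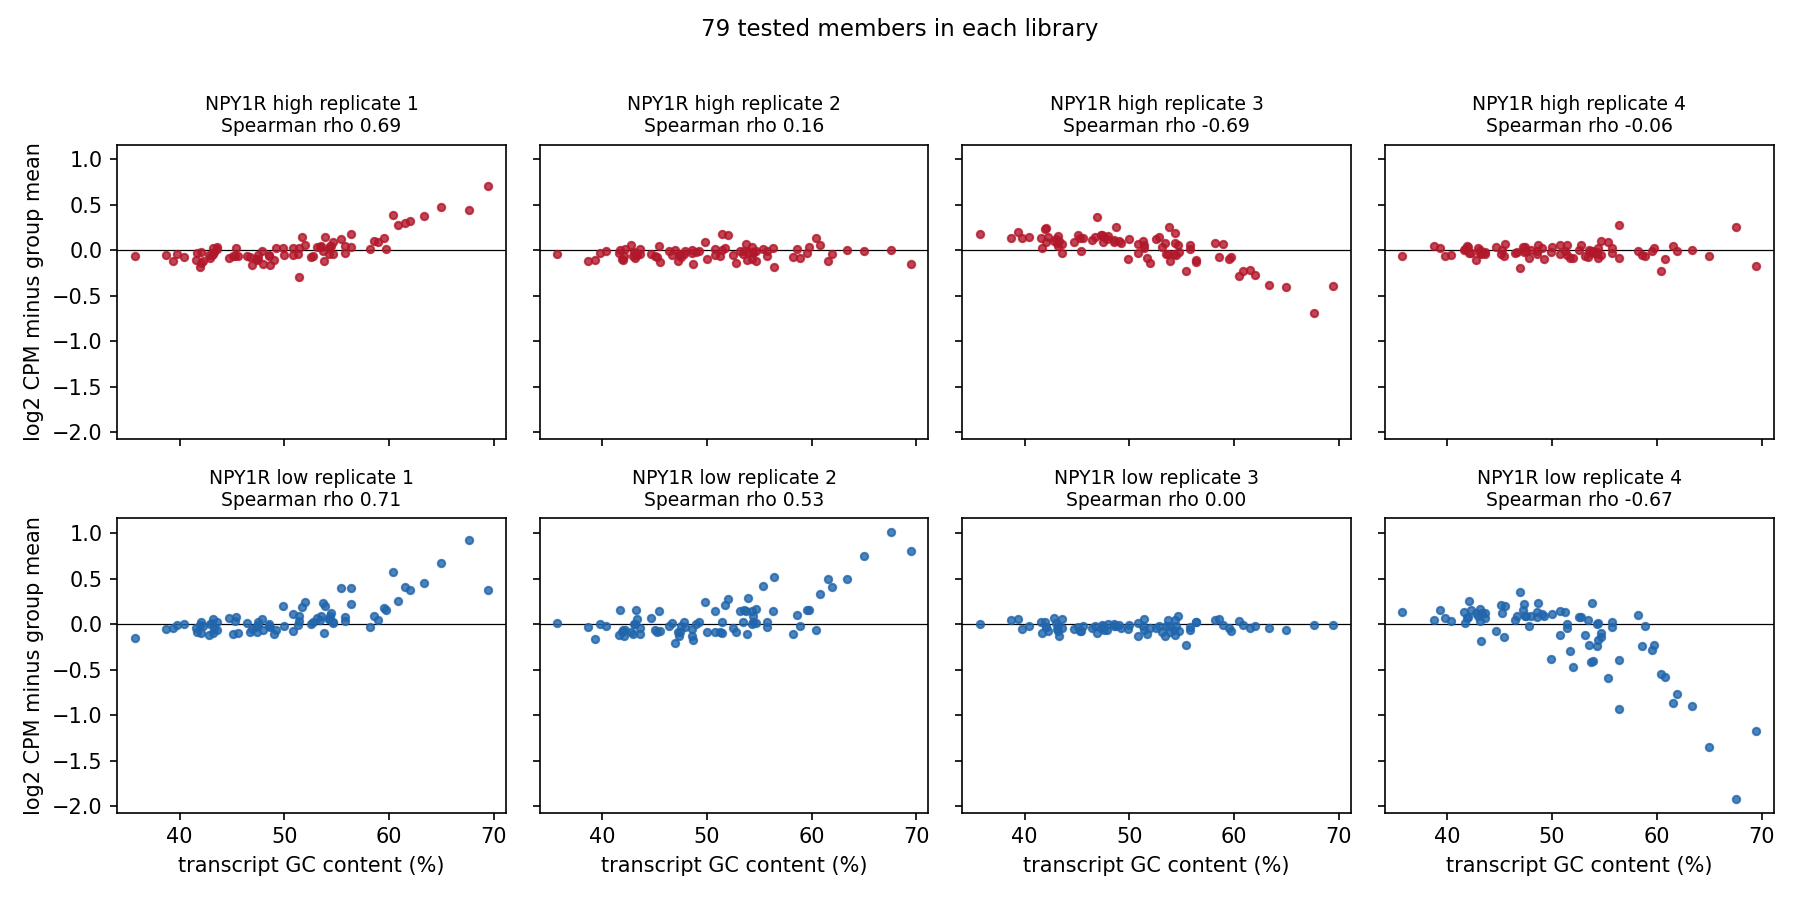
Deviation of each of the 79 tested members from its group mean (log2 CPM, y axis) against transcript GC content (%, x axis), 1 panel per library, red for NPY1R high and blue for NPY1R low, with Spearman's rho above each panel. The points climb with GC content in high replicate 1 and low replicates 1 and 2 and drop in high replicate 3 and low replicate 4.

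Removing each library's smooth trend with GC content lowered the median SD of the GC-rich members from 0.49 to 0.24 (log2). With this offset 4 members passed the test, NDUFS1, NDUFC2, NDUFA6 and SDHB, all lower, against 21.3% of all genes called and 12.9% called lower. SDHB then had a fold change of -0.18 and an adjusted p of 0.015. With NPY1R high replicate 3 and NPY1R low replicate 4 left out, NDUFC2 and NDUFA6 passed, 2 of 80 tested members. That fit called 1935 genes in all.

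The replicates were also read in the pairs 1 with 2 and 3 with 4, a grouping that the labels do not give. In replicates 1 and 2 alone, 12 members were lower and 2 higher, 17.5% of 80 members. Over all genes 21.2% were called, 11.2% lower and 10% higher. Of the 12, 10 were in complex I (27.8% of its 36, against 11.2%), whose median was -0.10. These 10 included NDUFS7, NDUFB7, NDUFS8 and NDUFA13, with GC contents of 61.6% to 67.6%. Members at 60% or more had positive median deviations in low replicates 1 and 2 (0.43 and 0.50) and high replicate 1 (0.38). In high replicate 2 the median deviation was 0.0. With the GC offset, 12 of the 36 complex I members were lower, against 2268 of all 14206 genes, and 1 was higher. In either direction 36.1% were called, against 25.9% of all genes. In replicates 3 and 4 alone no member passed, against 6.35% of all genes, and the median of complex I was 0.06. The test of the difference itself, an interaction term over all genes, called none of the 14008 genes and none of the members, whose lowest adjusted p was 0.685; 7 members had an unadjusted p under 0.05 (8.86%, against 7.3% of all genes). With the GC offset the interaction called 1 gene (0.00714%), which was no member. The members' lowest adjusted p was then 0.416, and 11 had an unadjusted p under 0.05 (13.9%, against 9.24% of all genes). NDUFS1 had a fold change of -0.09 in replicates 1 and 2 and of -0.31 in replicates 3 and 4, NDUFC2 of -0.31 and -0.17, and NDUFA6 of -0.26 and -0.13. NDUFS7 changed sign between them, from -0.83 to 0.45.

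Promoters in the RefSeq table (250 bases before to 50 after a start) were found for 66 of the 83 subunits and isoforms, 62 of them tested. The NRF1 letters GCATGCGC, on either strand, occurred in 14 of the 62 (22.6%), against 6.37% of the 10565 tested genes with a promoter and 3.68% of all 27305 genes in the table. The ETS letters CCGGAAGT occurred in 11 (17.7%, against 9.75% and 4.95%), the YY1 letters AAGATGGCG in 9 (14.5%, against 4.57% and 2.14%) and the estrogen-related receptor letters AAGGTCA in 10 (16.1%, against 3.75% and 4.8%). Each motif was counted by itself, also where it overlapped another. Members with the NRF1 letters had a median fold change of -0.03 and those without of -0.06. For the ETS letters these medians were -0.06 and -0.05, for YY1 -0.16 over 9 members and -0.05, and for the estrogen-related receptors -0.04 and -0.05. The 9 members with the YY1 letters were ATP5J, NDUFA6, NDUFA7, NDUFA9, NDUFB8, NDUFS4, NDUFS7, SDHB and UQCRC1. Their fold changes ran from -0.46 (NDUFS7) to 0.13 (NDUFA7), and 1 was called. NDUFA6, SDHB and NDUFS7 also had the NRF1 letters. Whether members with and without a motif differ was not tested.

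Among 13 regulators of mitochondrial biogenesis, 1 was higher and 1 lower in NPY1R high (15.4%, against 13.6% of all tested genes). PPARGC1A, the coactivator of NRF1 and the estrogen-related receptors, had 13.7, 14.2, 16.4 and 13.7 CPM in the high libraries and 8.29, 7.60, 9.84 and 7.97 CPM in the low libraries. Every high library of PPARGC1A stood well above every low one, and the fold change was 0.79 (SE 0.11, adjusted p = 0.00129), 1.73-fold, kept under all 36 alternatives. NRF1 itself had 19.6, 17, 18.7 and 19.5 CPM in the high and 22.8, 22.3, 23.4 and 21.8 CPM in the low libraries, a fold change of -0.27 (SE 0.08, adjusted p = 0.0411). That call for NRF1 was kept under 8 of 36 alternatives and lost on leaving out any 1 library, with adjusted p from 0.067 to 0.145. GABPA (-0.04, SE 0.11), ESRRA (0.03, SE 0.18) and TFAM (-0.08, SE 0.05), which maintains mitochondrial DNA, did not pass.

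Few other genes of the pathway passed the test, and whether these lists differ from the subunits was not tested. The 6 subunits and carriers outside the name rule, among them CYC1, CYCS and NDUFAB1, had none past the test and a median of 0.01. Of 50 tested assembly factors, 2 were lower and none higher (4.0%, against 13.6% of all tested genes), with a median of 0.00. Both act on complex IV, for which 21 assembly factors were tested (9.52% lower, against 7.81% of all tested genes). COX17, which delivers copper to the oxidase, had 26.9, 23.7, 30.3 and 25.7 CPM in the high and 37.7, 37.1, 32.9 and 31.9 CPM in the low libraries, with no overlap and a fold change of -0.39 (SE 0.09, adjusted p = 0.0221). COX19, named after its value was seen, had a fold change of -0.27 (SE 0.07, adjusted p = 0.0354). Of 18 enzymes of the tricarboxylic acid cycle, 1 was lower, the NADP-dependent IDH2 at -0.38 (SE 0.10, adjusted p = 0.025), whose groups overlapped through low replicate 4. By some measures more of the cycle leaned the same way: 14 of the 18 fold changes were negative, against 7831 of the 14008 over all genes. An unadjusted p under 0.05 was found for 7 (38.9%, against 26.2% of all genes), and 7 were lower with the GC offset (12.9% of all genes were). By other measures it did not. The 1 call was 5.56% of the list, against 7.81% of all genes called lower. The groups did not overlap for 2 of the 18 (11.1%, against 20.2% of all genes). Of 7 carriers and channels for ATP and phosphate, 1 was lower (14.3%, against 7.81% of all tested genes). It was the adenine nucleotide carrier SLC25A5 at -0.21 (SE 0.05, adjusted p = 0.014). COX17 lost its call without high replicate 1, 2 or 4 or low replicate 1 or 2 (adjusted p from 0.0551 to 0.0973), and COX19 without high replicate 2, 3 or 4 or low replicate 1 or 2 (0.0907 to 0.156). IDH2 lost it without high replicate 2, 3 or 4 or low replicate 1, 2 or 3 (0.0604 to 0.103), and SLC25A5 without high replicate 3 or 4 or low replicate 1 or 4 (0.0543 to 0.105).

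Lists outside the respiratory chain give the scale of these values. Of 17 glycolytic enzymes, 2 were higher and 3 lower (29.4%, against 13.6% of all tested genes), with a median of -0.18. HK2, a hexokinase bound to the outer mitochondrial membrane, had 76.4, 72.2, 56.2 and 57.8 CPM in the high and 99.4, 83.5, 105 and 110 CPM in the low libraries, a fold change of -0.60 (SE 0.12, adjusted p = 0.00784). PFKM, a phosphofructokinase, rose by 0.42 (SE 0.07, adjusted p = 0.00313) without overlap between the groups. The other 3, named after their values were seen, were LDHB (0.36, SE 0.09), ENO1 (-0.21, SE 0.06) and LDHA (-0.56, SE 0.16, adjusted p = 0.0478). Of 74 mitochondrial ribosomal protein genes, MRPL16 (0.51, SE 0.06) and MRPL15 (0.24, SE 0.05) were higher and MRPS15 (-0.25, SE 0.06) was lower. Of 79 cytosolic ones, RPS29 (0.31, SE 0.07) and RPS3 (0.23, SE 0.06) were higher and RPL39L (-0.46, SE 0.08) was lower. HK2, PFKM, MRPL16, MRPL15, RPS29 and RPL39L kept their calls without any 1 of the 8 libraries. LDHA and ENO1 lost theirs without any 1 library other than low replicate 2 (adjusted p from 0.0797 to 0.214), and LDHB without any 1 other than high replicate 4 or low replicate 4 (0.0527 to 0.0718). MRPS15 lost its call without high replicate 1, 2 or 4 or low replicate 1 or 4 (0.0599 to 0.0966), and RPS3 without any 1 other than high replicate 2 or low replicate 4 (0.0764 to 0.108). The 3.8% called among the members thus equalled the share among cytosolic ribosomal genes (3.8%) and was close to that of mitochondrial ones (4.05%), while whether the lists differ was not tested.

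**Figure D5:**
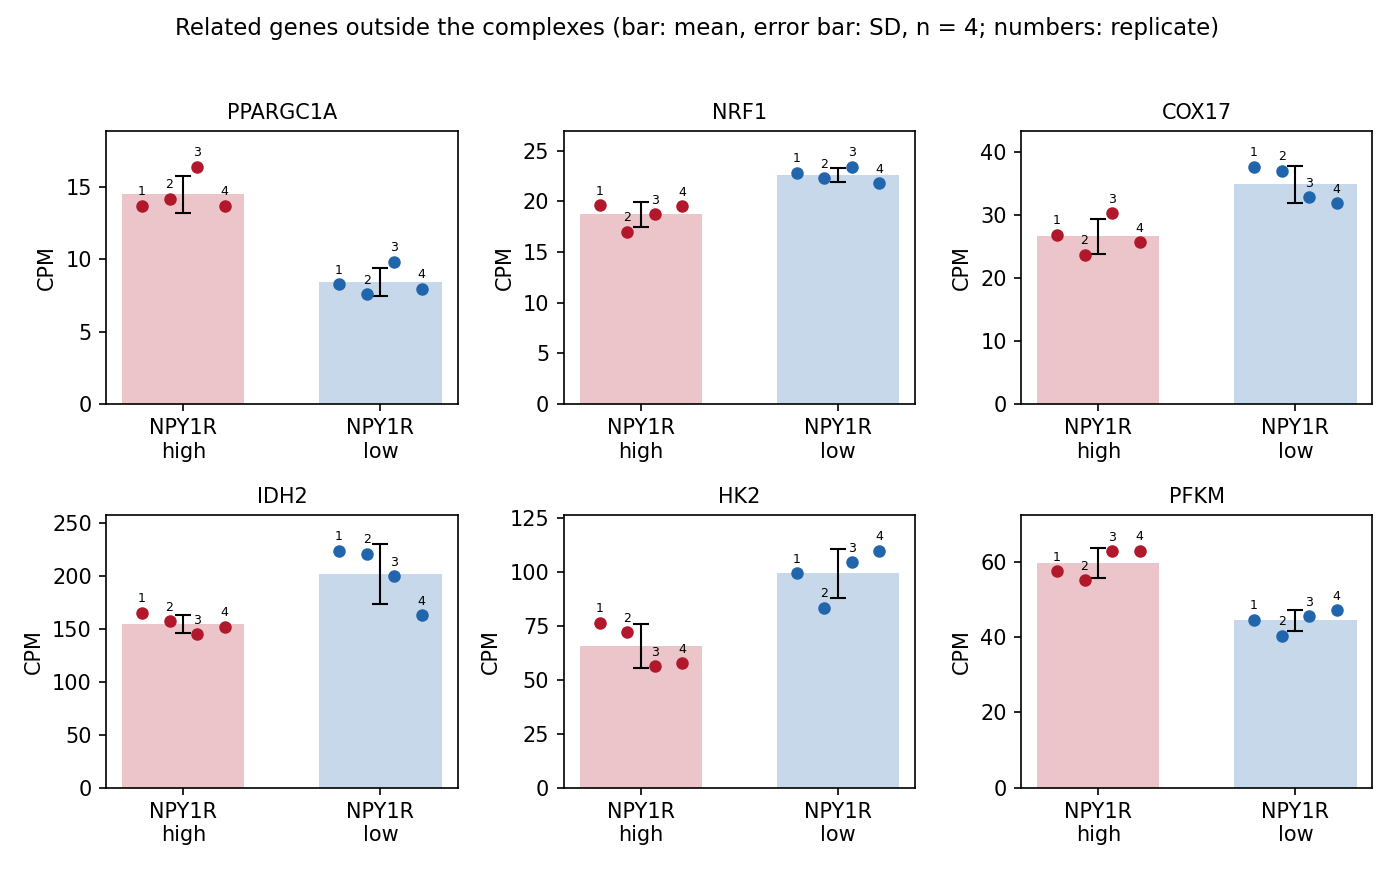
CPM (y axis, from 0) of PPARGC1A, NRF1, COX17, IDH2, HK2 and PFKM in NPY1R high and NPY1R low; bars are means, error bars SD (n = 4), and each numbered point is a replicate. PPARGC1A and PFKM are higher in every NPY1R high library, while NRF1, COX17 and HK2 are lower in every 1, and IDH2 overlaps through low replicate 4.

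The rows outside the complexes added no call. ATP5S and ATP5SL, now named DMAC2L and DMAC2, had fold changes of -0.02 (SE 0.12) and -0.17 (SE 0.13). The 5 others (ATP5L2, ATP5J2-PTCD1, NDUFC2-KCTD14, NDUFB2-AS1 and NDUFV2-AS1) had between 13 and 75 counts over all libraries and were not tested. All 34.8 expected counts of the readthrough gene ATP5J2-PTCD1 came from 1 library, the 1 library in which ATP5J2 itself had a fractional count.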

How the data were processed

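RNA of 8 BT474 samples was sequenced. The authors deposited unscaled expected counts by gene symbol, made with STAR 2.5.2 and RSEM 1.3.0 on hg38, per the submitters' processing notes; the gene annotation is not given in the sources used here. In each library 7.97% to 8.76% of these values were not whole, and they were rounded before testing. Genes were filtered with edgeR's filterByExpr (minimum count 10), scaled by TMM and tested by edgeR's quasi-likelihood test, 4 against 4 libraries, without covariates (R 4.3.3, edgeR 4.0.16, limma 3.58.1, DESeq2 1.42.0). CPM are counts divided by the TMM-scaled library total. Transcript length, GC content and gene coordinates came from GENCODE release 29, matched by symbol for all 91 members; the GC offset was a spline with 5 degrees of freedom per library. Levels between genes depend on these lengths. The procedure was tested on simulated counts, which were drawn without a GC trend between libraries, so that test does not cover such a trend. Medians over members carry no test, since genes are not replicates.

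Genes named by rule were all members past the threshold, the 3 on either side of it, the 2 highest and the lowest per length in each complex, tested paralogues, and the most raised and most lowered called gene of each list. Other genes given with values lay outside this rule and were picked with their values known. Among them were NDUFB11, NDUFB6, NDUFC1, NDUFB7, UQCR10, UQCRC1 and ATP5J. The members and lists were chosen with earlier results of these data known. Counts have no molecular identifiers, so limits from counts cover counting error only. Alternatives covered scaling, filters, tools, offsets, replicate terms and left-out libraries. The values of 1 tested complex I subunit are not reported here, by name or in the plot of fold changes, but it is part of the counts, sums and medians.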

Additional observations from a re-analysis of the deposited data

Results flagged for a closer look

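In 3 members a library stood apart from the rest of its group of 4, by the gap to its nearest neighbour as a share of the group's range. Of 86 group values examined (genes named by rule and sums of complexes), about 4.3 would be picked by chance at 5%. NDUFB9 had its lowest NPY1R low value in replicate 3, at 130 CPM against 145 to 147 CPM in the others (gap 0.885 of the range). COX8A had its lowest NPY1R low value in replicate 4, at 184 CPM against 226 to 233 CPM (gap 0.863). ATP5D had its highest NPY1R high value in replicate 1, at 6.05 CPM against 2.79 to 3.31 CPM (gap 0.839). COX8A, with a GC content of 58.6%, and ATP5D, with 69.5%, followed the order of libraries described for GC-rich members, and NDUFB9, with 53.4%, did not; the part of GC content in these values was not tested.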

How the results depend on the processing

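Of 1417 values recomputed for 40 results, 1047 stayed as reported in direction and call, or within their spread, 278 were weaker, 60 stronger, 27 moved and 5 reversed. The reversed values are the fold changes of NDUFS7 in replicates 3 and 4 alone (0.45, and 0.24 with the GC offset) and of ATP5D in replicates 1 and 2 alone (-0.02), without NPY1R high replicate 1 (-0.21) and without NPY1R low replicate 4 (-0.13); over all libraries left out in turn, ATP5D ran from -0.21 to 0.41. The number of members called was 3 as reported, all lower, and 3 with DESeq2 and limma-voom. It was 1 under DESeq2 or upper-quartile factors, each of the 7 other TMM references, a minimum of 10 counts in every library, the length offset and the table without small non-coding RNAs. It was 0 with library totals, without a filter, at an adjusted p under 0.01 and in replicates 3 and 4 alone. At 1 CPM in 4 libraries it was 1 lower and 1 higher. It was 6 lower with the GC and length offsets and 6 lower when replicates 1 and 2 were set against 3 and 4 by a model term. That term with the GC offset gave 10 (9 lower, 1 higher). Replicates 1 and 2 alone gave 14 (12 lower, 2 higher), with the GC offset 22 (19 lower, 3 higher), and replicates 3 and 4 with it 1 lower and 1 higher. Leaving out 1 library gave 0 to 3 members and 1351 to 2132 genes.

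Calls over all genes rose from 1904 to 2983 with the GC offset, 3205 with GC and length, 2886 with the replicate term, 4264 with that term and the GC offset, 3015 in replicates 1 and 2 alone and 3684 with the GC offset there, and fell to 888 in replicates 3 and 4. In the pathway lists 17 genes were called, against 41, 45, 37, 62, 44, 67 and 8 under these settings in that order, 26 in replicates 3 and 4 with the GC offset, 8 with the length offset and 7 to 24 without 1 library. The median over all members was 0.052 in replicates 3 and 4 alone. There, complexes I, II, III, IV and V had medians of 0.063, 0.068, 0.0, 0.049 and 0.047. With the GC offset in replicates 1 and 2, complexes II to V had -0.092, -0.107, -0.105 and -0.068, and in replicates 3 and 4 complexes II and IV had 0.038 and 0.027. Upper-quartile factors gave 0.025, 0.0, -0.007 and 0.034 for complexes II to V. Complex IV had -0.021 with low replicate 2 as TMM reference, -0.011 without a filter and -0.02 under both stricter filters. Without 1 library, complexes III, IV and V ran from -0.068 to 0.005, -0.068 to 0.013 and -0.036 to 0.031. ATP5G1 gave 37.1% of the c subunit counts without dividing by length.

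Replicate numbers occur in both groups, but same-numbered libraries deviated together with correlations of only 0.339, 0.157, 0.0907 and 0.0178, so they were not treated as pairs. With a replicate block 1 member was called (NDUFC2), and with the block and GC and length offsets 9 (8 lower, 1 higher), beside 3900 genes and 63 in the pathway lists. Precision was lowest among GC-rich members, with standard errors of up to 0.51 (NDUFS7); for 8 members the interval did not exclude a change of 1.5-fold.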
